A study of Homo sapiens with 4 samples.

Results

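The mitochondrial ribosomal protein genes were followed in HCT116, an established human colon cancer cell line, held at low oxygen. A gene belonged to the set if its symbol in the platform annotation began with MRPL or MRPS and a number, and if a probe set was listed for it alone. This gave 77 of 19777 genes on the array. Of these, 75 code for ribosomal subunit proteins, 48 named for the large subunit and 27 for the small one. The other members were MRPL20-AS1, an RNA from the strand opposite MRPL20, and the pseudogene MRPL45P2, and both were kept out of the counts below. The rule used names only and no measured value.

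After 24 h without serum, cells spent 72 h in hypoxia (1% oxygen) or in normoxia (21% oxygen). Each condition had 2 arrays, labelled exp A and exp B and called A and B here. Whether A and B came from separate cultures is not stated in the labels. The p-values therefore measure only how far these samples differ from each other, a spread that may be technical, and the number of arrays limits the precision. All cells were of 1 line and all were serum starved, the normoxia cells included. The low-oxygen label was checked on 4 genes known to be induced by hypoxia. All 4 rose, VEGFA by 2.10 and ANGPTL4 by 6.11 on the log2 scale.

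Mitochondria have ribosomes of their own, which translate the few proteins encoded by mitochondrial DNA, all of them core parts of the respiratory chain and the ATP synthase. The RNA of this ribosome comes from the mitochondrial genome, but its proteins are all encoded in the nucleus, made in the cytosol and imported. Some descend from bacterial ribosomal proteins and others were added in mitochondria. In the nucleus, ETS factors such as GABP, NRF1 and YY1 are known to act on many genes of mitochondrial proteins.

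Most subunit genes were lower in hypoxia. Values are MAS5 signals, the summary of a probe set's brightness on a linear scale, and each difference is the hypoxia mean less the normoxia mean of log2(signal + 23.7). Changes of genes with low signal are understated on this scale. Of 75 subunit genes tested, 55 fell, 3 rose and 17 did not pass the test (limma, Benjamini-Hochberg adjusted p under 0.05 over 12636 genes). Over all genes tested, 38% were called, made up of 22.8% of the genes tested that were lower and 15.3% that were higher in hypoxia. The share of subunit genes called lower was 73.3%. Of the 55 that fell, 41 fell at least 2-fold. All 55 were lower in hypoxia in both the A and the B arrays, but the calls were made on these same arrays. The median difference over the 75 genes was -1.07, with quartiles of -1.50 and -0.50, against -0.03 over all genes tested. In 66 subunit genes both hypoxia values lay below both normoxia values, which held for 37.9% of all genes tested. In 3 both hypoxia values lay above, which held for 34.1% of all genes, and 6 overlapped. Without the normoxia B array, 34 subunit genes were called lower.

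**Figure D1:**
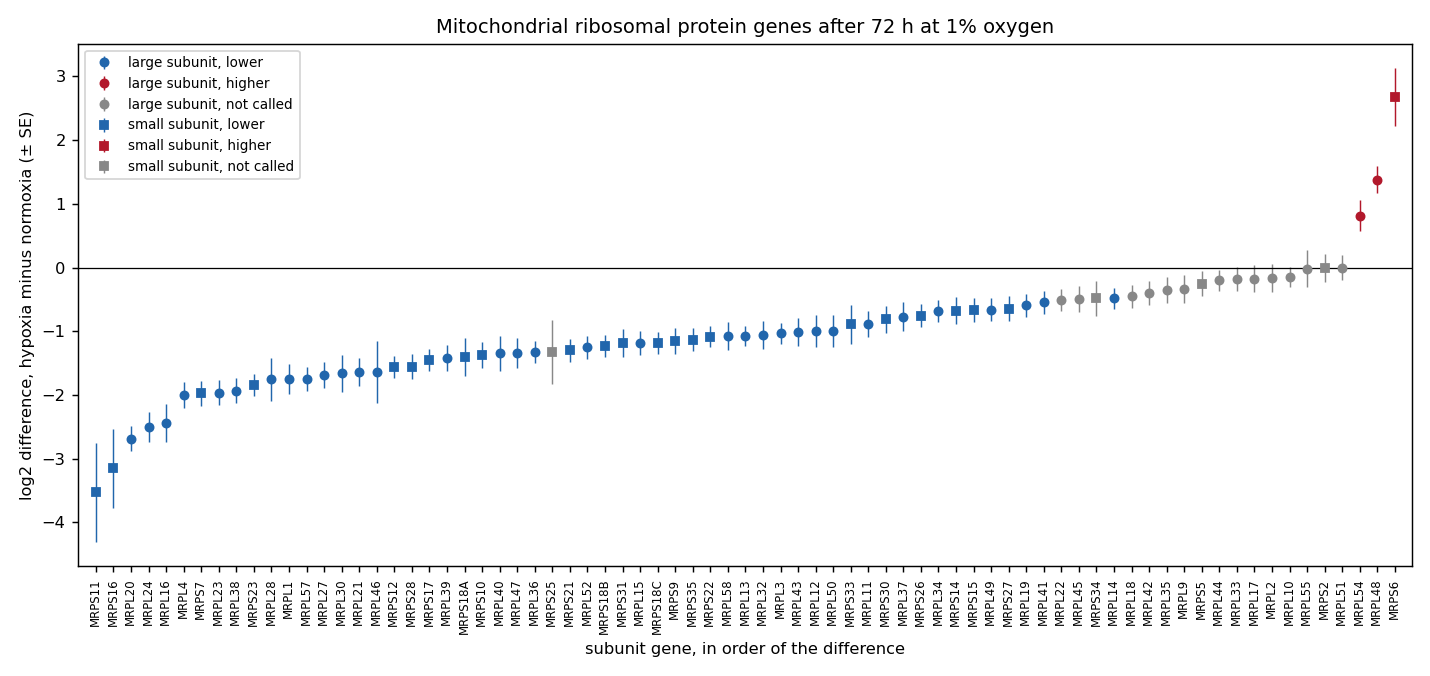
Log2 difference, hypoxia minus normoxia, of the 75 subunit genes (y axis, ± SE of the limma fit on 4 arrays), ordered by size along the x axis. Circles are large and squares small subunit genes; blue fell, red rose and grey did not pass the test. 72 genes lie below 0, MRPS6, MRPL48 and MRPL54 stand above it, and MRPL48 and MRPL54 are below 0 when arrays are scaled to the hybridization controls.

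All directions are relative to the other genes, since each array was scaled to the same trimmed mean of 500.1. Scaled instead to the bacterial RNAs spiked in before hybridization, the median of all genes moved by -1.47, and scaled to the 75th percentile it moved by 0.15. The subunit median minus the median of all genes stayed between -1.23 and -0.91 over the settings tried. The spiked controls averaged 9869 and 8594 in hypoxia, against 2444 and 4595 in normoxia. The ACTB 3′ to 5′ signal ratio, a sign of RNA quality, was 1.66 and 1.77 in hypoxia, against 1.26 and 1.28 in normoxia. The same ratio for GAPDH was 0.912 and 0.955 in hypoxia, against 0.918 and 0.996 in normoxia. The part of RNA quality in the subunit genes' differences was not tested. Among all calls, 1927 were higher and 2876 lower, and with 75th percentile scaling 2393 were higher and 2409 lower. In RNA from whole cultures, fewer cells of one kind and less RNA per cell cannot be told apart. Of 5 epithelial markers 3 rose and none fell, with a summed signal of 115091 and 107609.9 in hypoxia against 73787 and 87291 in normoxia. Of 5 markers of other cells measured, 3 were tested and COL1A1 rose. It had 1752 and 2162 in hypoxia, against 545 and 595 in normoxia. COL1A2, also a fibroblast marker, had 50.8 and 164 in hypoxia, against 29.6 and 190 in normoxia. Neither COL1A2 nor PECAM1 passed the test. The summed signal of the 5 markers was 2239.6 and 2652 in hypoxia, against 710.5 and 1104.5 in normoxia. Most of it was COL1A1 on each array, and no marker was at 0 on any array. Their part in the subunit genes' differences was not tested.

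Promoter sequences were at hand for 67 of the 75 subunit genes (RefSeq, GRCh38.p14; 250 bases before to 50 after the start of the gene). Each was searched on both strands for CCGGAAG (ETS), GCATGCGC (NRF1), AAGATGGC (YY1), the E-box CACGTG, and the core of the HIF site. That core is spelled ACGTG and lies within the E-box, so every E-box was also counted as a core. The ETS motif was found in 28 of 67 subunit promoters (41.8%), against 14.2% of 15843 coding gene promoters. The YY1 motif was in 19 (28.4%), against 3.91%, and the NRF1 motif in 6 (8.96%), against 4.26%. The E-box was in 6 (8.96%), against 8.88%, and the HIF core in 19 (28.4%), against 23.7%. In the 9723 coding genes that were tested, the shares were 19.1% (ETS), 5.36% (YY1), 5.38% (NRF1), 10.1% (E-box) and 26.4% (HIF core). At least 1 of the first 3 motifs was in 40 promoters (59.7%), against 20.3% of all. The ETS motif was in 23 of the 50 matched genes that fell, in 3 of 14 that did not pass the test and in 2 of the 3 that rose. The YY1 motif was in 15 of the 50 and 4 of the 14, and in none of the 3. A match describes the letters only.

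**Figure D2:**
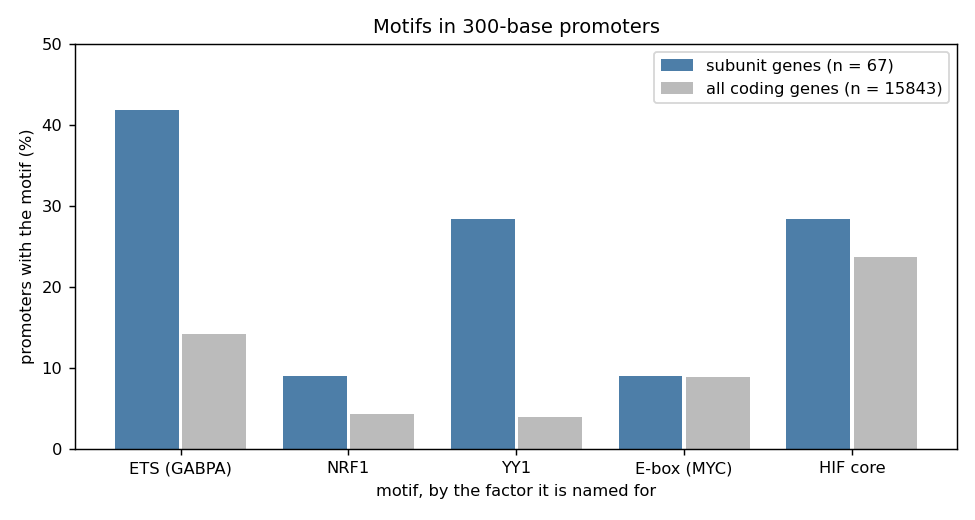
Share of 300-base promoters (y axis, percent) that hold each motif (x axis) in 67 subunit genes (blue) and in 15843 coding genes (grey). ETS and YY1 motifs were in 41.8% and 28.4% of subunit promoters, against 14.2% and 3.91% of all. In the 9723 coding genes that were tested, not drawn, the shares were 19.1% and 5.36%.

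The promoters below are those of 2 genes with a large decrease and of 2 that rose, shown because the same ETS motif stands in all 4. Capitals mark the motifs, on either strand. MRPL20 (chr1:1407244-1407543, minus strand) holds the ETS motif at 2 places and the YY1 motif. MRPS16 (chr10:73252595-73252894, minus strand) holds the ETS motif just after the start of the gene. MRPL48 (chr11:73787624-73787923, plus strand) and MRPL54 (chr19:3762432-3762731, plus strand) hold it just before the start, and MRPL54 also holds the HIF core. The promoters of MRPS11 and MRPS6, which had the largest decrease and the largest increase, held none of the motifs.
MRPL20: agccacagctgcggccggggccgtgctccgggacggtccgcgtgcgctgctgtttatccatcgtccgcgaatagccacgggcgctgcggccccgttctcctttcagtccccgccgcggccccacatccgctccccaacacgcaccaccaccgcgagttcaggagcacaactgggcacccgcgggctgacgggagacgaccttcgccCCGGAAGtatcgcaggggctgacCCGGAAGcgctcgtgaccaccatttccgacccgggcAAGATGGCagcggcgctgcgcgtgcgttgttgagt
MRPS16: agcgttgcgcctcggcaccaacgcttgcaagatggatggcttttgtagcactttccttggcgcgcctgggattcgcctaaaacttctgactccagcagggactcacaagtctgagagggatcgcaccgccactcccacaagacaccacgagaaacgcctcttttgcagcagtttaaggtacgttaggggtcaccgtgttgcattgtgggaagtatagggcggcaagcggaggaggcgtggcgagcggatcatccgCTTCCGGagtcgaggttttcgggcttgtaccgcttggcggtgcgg
MRPL48: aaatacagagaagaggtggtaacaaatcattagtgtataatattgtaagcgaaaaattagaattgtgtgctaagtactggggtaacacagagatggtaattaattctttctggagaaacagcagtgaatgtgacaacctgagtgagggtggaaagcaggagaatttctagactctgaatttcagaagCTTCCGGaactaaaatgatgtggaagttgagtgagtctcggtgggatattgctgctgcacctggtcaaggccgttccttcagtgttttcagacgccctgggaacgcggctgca
MRPL54: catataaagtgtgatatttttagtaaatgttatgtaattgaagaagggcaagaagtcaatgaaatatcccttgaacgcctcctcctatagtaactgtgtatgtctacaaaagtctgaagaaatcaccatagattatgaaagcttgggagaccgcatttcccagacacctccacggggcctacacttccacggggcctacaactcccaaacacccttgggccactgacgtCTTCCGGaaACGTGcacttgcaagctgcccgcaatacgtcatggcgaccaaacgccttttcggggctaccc

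The large subunit joins amino acids into protein and holds the tunnel through which the chain leaves. Of its 48 genes, 33 fell, 2 rose and 13 did not pass the test, with a median of -1.01. Without the normoxia B array, 21 were called lower. MRPL20, the homologue of bacterial L20, had signals of 690 and 606 in hypoxia, against 3868 and 4789 in normoxia. The groups lay far apart, and the gene fell by 2.69 ± 0.20 (SE, n = 2 arrays each) on the log2 scale (limma adjusted p = 5.53e-05). With the mean of its probe sets the difference was -0.78 (limma adjusted p = 0.309), and the mean signals of its other probe sets were under the filter of 97.4. MRPL20-AS1 had 55.3 and 213 in hypoxia, against 639 and 547 in normoxia, and fell by 2.17 ± 0.54 (limma adjusted p = 0.0125). The RNA and its partner overlap in the annotation.

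Among proteins around the exit of the tunnel, MRPL24 and MRPL23 gave some of the larger decreases. MRPL24 had 341 and 278 in hypoxia, against 1863 and 1853 in normoxia, a difference of -2.51 ± 0.24 (limma adjusted p = 1.29e-04). MRPL23, at the rim of the exit, had 576 and 616 in hypoxia, against 2326 and 2475 in normoxia, a difference of -1.97 ± 0.20 (limma adjusted p = 1.62e-04). The groups did not overlap in either gene. Of 7 genes placed around the exit 4 fell, with a median of -1.06, against 55 of 75 and -1.07 over all subunit genes. MRPL17, MRPL22 and MRPL45 did not pass the test. With the mean of its probe sets MRPL23 was at -0.38 (limma adjusted p = 0.35).

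MRPL16, a homologue of a bacterial protein near the site where tRNAs bind, had 231 and 417 in hypoxia, against 1760.4 and 1840.2 in normoxia. It fell by 2.44 ± 0.30 (limma adjusted p = 3.99e-04). MRPL4, homologue of a protein that lines the tunnel, had 835 and 640.4 in hypoxia, against 2883 and 3147 in normoxia. It fell by 2.01 ± 0.21 (limma adjusted p = 1.85e-04), and with probe sets that may match several transcripts left out it was at -1.53 (limma adjusted p = 0.177). In both genes every hypoxia value lay well below every normoxia value. Of the 3 proteins of the stalk and its base, where translation factors bind, MRPL11 and MRPL12 fell and MRPL10 was at -0.15.

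The central protuberance faces the small subunit. Of 7 of its genes 4 fell and 1 rose, with a median of -1.35. MRPL38, which has no bacterial counterpart, had 728 and 639 in hypoxia, against 2649.5 and 2689 in normoxia. It fell by 1.93 ± 0.19 (limma adjusted p = 1.62e-04), and with the mean of its probe sets it was at -0.52 (limma adjusted p = 0.201). MRPL46 had 149 and 526 in hypoxia, against 877 and 1001 in normoxia, with the hypoxia arrays apart by 1.67 on the log2 scale.

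MRPL48, also in the central protuberance, rose. Its signals were 1585 and 1978 in hypoxia, against 677 and 656 in normoxia, a difference of 1.38 ± 0.21 (limma adjusted p = 0.00128). MRPL54, a further large subunit protein, had 858 and 1050.4 in hypoxia, against 538 and 521 in normoxia, a difference of 0.82 ± 0.24 (limma adjusted p = 0.0273). Both groups were apart in each gene, but with arrays scaled to the hybridization controls MRPL48 was at -0.05 and MRPL54 at -0.60. MRPL54 did not pass the test without either normoxia array (limma adjusted p = 0.192 and 0.213), nor without an intensity trend (0.0626).

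**Figure D3:**
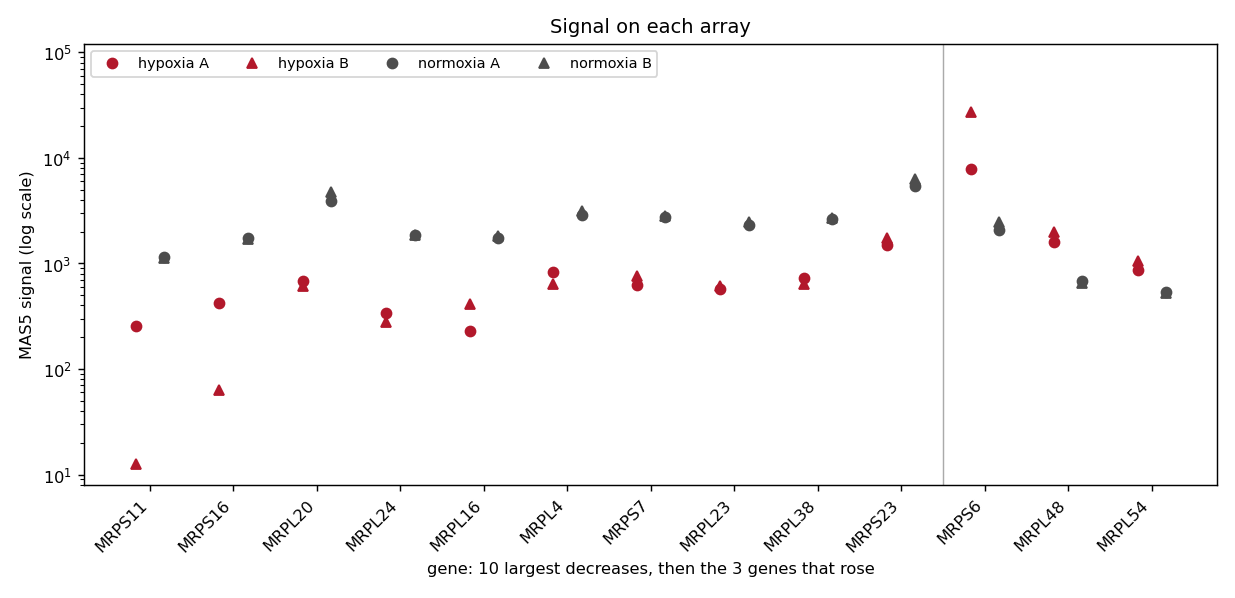
MAS5 signal on each array (y axis, log scale) for the 10 subunit genes with the largest decrease and, right of the line, the 3 that rose. Red marks are hypoxia and dark marks normoxia, circles array A and triangles array B. Hypoxia B lies far below hypoxia A in MRPS11 and MRPS16 and far above it in MRPS6, and scaled to the hybridization controls MRPL48 and MRPL54 are at -0.05 and -0.60.

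The small subunit reads the messenger RNA. Of its 27 genes 22 fell, 1 rose and 4 did not pass the test, with a median of -1.18, and without the normoxia B array 13 were called lower. All 7 genes placed in its head fell, with a median of -1.15. MRPS7, a head protein, had 627 and 766 in hypoxia, against 2755 and 2826 in normoxia, a difference of -1.97 ± 0.20 (limma adjusted p = 1.65e-04). MRPS23, which has no bacterial counterpart, had 1510.1 and 1738 in hypoxia, against 5458 and 6318 in normoxia. It fell by 1.84 ± 0.17 (limma adjusted p = 1.34e-04), and the groups of both genes were well apart.

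The largest differences of the set rested in part on 1 array. MRPS11, a platform protein, had 257 and 12.7 in hypoxia, against 1159 and 1130.0 in normoxia, a difference of -3.53 ± 0.78 (limma adjusted p = 0.00716). Without hypoxia B it was -2.06, and without hypoxia A -5.01. MRPS16, in the body of the small subunit, had 422 and 62.9 in hypoxia, against 1739 and 1709.7 in normoxia, a difference of -3.15 ± 0.62 (limma adjusted p = 0.00399). Without hypoxia B it was -1.97, and without hypoxia A -4.34. Inherited faults in MRPS16 are known to cause a mitochondrial disease. Both hypoxia values lay below normoxia in each gene, and both calls were lost when the spread was not fitted against signal (limma adjusted p = 0.0766 for MRPS11 and 0.0633 for MRPS16).

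MRPS6, a platform protein, rose most. It had 7771 and 27174 in hypoxia, against 2064 and 2455 in normoxia, a difference of 2.68 ± 0.46 (limma adjusted p = 0.0021). Without hypoxia B it was 1.78, and without hypoxia A 3.58. In RefSeq the gene shares its start with SLC5A3, a myo-inositol transporter, and the genes overlap. SLC5A3 had 2988 and 5320 in hypoxia, against 889.8 and 1052 in normoxia, and rose by 2.02 ± 0.27 (limma adjusted p = 6.01e-04). Whether the probe sets of the overlapping genes measured different transcripts was not tested. MRPS6 was at 1.23 with scaling to the hybridization controls (limma adjusted p = 0.0908), and it did not pass the test without an intensity trend (limma adjusted p = 0.0543).

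The MRPS18 genes are 3 paralogues whose proteins sit at different places. MRPS18A, which lies in the large subunit despite its name, had 485 and 377 in hypoxia, against 923 and 1480.0 in normoxia, a difference of -1.40 ± 0.29 (limma adjusted p = 0.00557). MRPS18B had 1532 and 1630.1 in hypoxia, against 4049 and 3465 in normoxia, a difference of -1.23 ± 0.18 (limma adjusted p = 8.39e-04). MRPS18C had 1287 and 1359 in hypoxia, against 3159 and 2913 in normoxia, a difference of -1.18 ± 0.17 (limma adjusted p = 0.001). All 3 paralogues fell, but MRPS18A did not pass the test without normoxia B (limma adjusted p = 0.124), nor MRPS18C with the mean of its probe sets (limma adjusted p = 0.488). MRPS30, also a large subunit protein by structure, had 4318.5 and 2931 in hypoxia, against 6090.4 and 6478 in normoxia, a difference of -0.82 ± 0.21 (limma adjusted p = 0.013). Without hypoxia B it was -0.54. Further probe sets of MRPS30 past the filter, dimmer than the one used, were at -2.46 and -2.23. MRPS30 did not pass the test without normoxia A (limma adjusted p = 0.0529), without normoxia B (0.0845) or without an intensity trend (0.0991).

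The large subunit median minus the small one was 0.18, and it ran from 0.04 to 0.39 as arrays were left out in turn. Counting MRPS18A and MRPS30 as large, 35 of 50 large and 20 of 25 small subunit genes fell, with medians of -1.01 and -1.18. Of 45 genes classed as having a bacterial homologue 33 fell and 1 rose, with a median of -1.15. Of 30 genes classed as added in mitochondria 22 fell and 2 rose, with a median of -1.01. The classes split the MRPS18 paralogues, with MRPS18A and MRPS18B counted as added in mitochondria and MRPS18C as having a bacterial homologue. The difference between these groups of genes was not tested, since genes are not replicates. The median over subunit genes of the deviation from each gene's mean was -0.42 and -0.55 on the hypoxia arrays, against 0.50 and 0.52 on the normoxia arrays.

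The spread within a condition was wider in hypoxia. The median SD between the arrays of a pair was 0.24 in hypoxia and 0.07 in normoxia on the log2 scale, against 0.27 and 0.15 over all genes. In 6 subunit genes the hypoxia arrays differed over 2-fold from each other (MRPS11, MRPS16, MRPS6, MRPS25, MRPL46 and MRPS33), and 0 did in normoxia. Over all 12636 genes tested, 2125 differed that far in hypoxia and 934 in normoxia. MRPS25 had 164 and 608 in hypoxia, against 786 and 895 in normoxia, and with a difference of -1.32 did not pass the test (limma adjusted p = 0.064).

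The 17 genes that did not pass the test were MRPL2, MRPL9, MRPL10, MRPL17, MRPL18, MRPL22, MRPL33, MRPL35, MRPL42, MRPL44, MRPL45, MRPL51, MRPL55, MRPS2, MRPS5, MRPS25 and MRPS34. Their differences ran from -1.32 to -0.00 and their adjusted p from 0.05045 to 0.994 (limma). All subunit genes passed the filter on low signal, and the lowest mean signal of one over the 4 arrays was 447.3.

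The array holds 140 probe sets for the subunit genes, and the one with the highest mean was used for each. Of 49 further probe sets past the filter, in 27 genes, 40 had the same sign as the one used and 9 had the opposite sign. The opposite signs fell in 8 genes. In MRPL41 the set of opposite sign had 135 and 195 in hypoxia, against 68.6 and 33.6 in normoxia. Its difference was 1.36, where the set used gave -0.54 and a further, brighter set gave -0.13. In MRPS31 the set of opposite sign had 258 and 149.6 in hypoxia, against 51.2 and 8.03 in normoxia. Its difference was 2.18, where the set used gave -1.19 and a further, brighter set gave -0.78. In MRPL55 the set of opposite sign had 202 and 190.4 in hypoxia, against 7.51 and 42.8 in normoxia. Its difference was 2.27, where the set used gave -0.02. These were dim probe sets beside the ones used. The set of opposite sign in MRPL44 was brighter. It had 1396 and 1568 in hypoxia, against 1084 and 1074 in normoxia, a difference of 0.45. The other differences were 0.14 in MRPL19, 0.11 in MRPL52, 0.57 and 0.11 in MRPS15 and 0.10 in MRPS5. Among the 40 sets of the same sign, some gave larger decreases than the set used and others smaller ones. In MRPL42, which did not pass the test at -0.40, further sets were at -0.97 and -3.33. In MRPL35, which did not pass it at -0.35, further sets were at -0.71 and -2.22.

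Proteins that work with this ribosome were counted from lists of their own. Of 4 further ribosome proteins with other names 3 fell, among them PTCD3, a small subunit protein, with a difference of -1.47 ± 0.22 (limma adjusted p = 0.00113). DAP3, a small subunit protein first known from cell death, fell by 0.84, but was at 0.04 with the mean of its probe sets and at 0.55 with ambiguous probe sets left out. It did not pass the test without normoxia A (limma adjusted p = 0.0673) or without an intensity trend (0.0643). Of 24 assembly factors tested 12 fell and 3 rose, with a median of -0.78. TRUB2, a pseudouridine synthase, had 39.1 and 187 in hypoxia, against 609 and 694 in normoxia, and fell by 2.55 ± 0.57 (limma adjusted p = 0.00778). Without hypoxia B it fell by 3.43, and without hypoxia A by 1.68. RPUSD3 fell by 1.83, and DDX28, a helicase, by 1.81. With the mean of its probe sets RPUSD3 was at -0.0857 (limma adjusted p = 0.875) and DDX28 at -0.89 (limma adjusted p = 0.137). TRUB2 and RPUSD3 did not pass the test without normoxia B (limma adjusted p = 0.0519 and 0.0785) or without an intensity trend (0.0559 and 0.0512), nor DDX28 without normoxia A (limma adjusted p = 0.125). NGRN, needed for the large ribosomal RNA, rose by 1.61 ± 0.17 (limma adjusted p = 1.88e-04), and was at 0.16 with scaling to the hybridization controls.

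Of 14 translation factors and related genes tested, SLIRP, LRPPRC and OXA1L among them, 10 fell and 0 rose, with a median of -1.33. The largest decreases were in SLIRP, which stabilises mitochondrial messenger RNA (-1.99), the initiation factor MTIF2 (-1.90), the release factor MTRF1 (-1.64) and the elongation factor TUFM (-1.56). MTRF1 did not pass the test without normoxia B (limma adjusted p = 0.0611). Of 14 genes that copy, transcribe or process the mitochondrial genome 11 fell and 1, the DNA polymerase POLG, rose, with a median of -1.50. TWNK, the helicase at the replication fork, had 291 and 283 in hypoxia, against 1744 and 2065 in normoxia, and fell by 2.63 ± 0.24 (limma adjusted p = 1.13e-04). SSBP1, which binds single strands, fell by 2.03, but was at -0.28 with the mean of its probe sets (limma adjusted p = 0.558) and at 1.05 with ambiguous probe sets left out. TRMT10C, a part of the mitochondrial RNase P, fell by 1.78, and TEFM, an elongation factor of transcription, by 1.75. TEFM did not pass the test without normoxia A (limma adjusted p = 0.0777) or with the mean of its probe sets, where it was at -0.40 (limma adjusted p = 0.515).

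Among 11 regulators of such genes 1 fell and 3 rose. MYC fell by 1.19 ± 0.18 (limma adjusted p = 0.00109). MXI1, a repressor that opposes MYC, rose by 1.45, NRF1 by 0.84 and YY1 by 0.71, and with scaling to the hybridization controls they were at -0.01, -0.56 and -0.74. NRF1 did not pass the test without either normoxia array (limma adjusted p = 0.162 and 0.243), with the mean of its probe sets (0.835) or without an intensity trend (0.052). YY1 did not pass it without an intensity trend (limma adjusted p = 0.0653). GABPA, whose ETS motif was counted above, was at -0.02 ± 0.20 (limma adjusted p = 0.945).

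The 2 other gene sets were set beside the subunit genes. Of 55 cytosolic ribosomal protein genes tested, 51 rose, 1 fell and 3 did not pass the test, with a median of 0.95. This rise is relative to the other genes. With arrays scaled to the hybridization controls, the median of all genes moved by -1.47. Only 52 of 12514 genes tested were then called higher, and the median of the cytosolic set was not computed with that scaling. The one that fell was RPS27L, a paralogue, by 1.08. Of 32 genes for subunits of complex I, the first enzyme of the respiratory chain, 22 fell and 1 rose, with a median of -0.90. The cytosolic ribosome genes deviated by 0.49 and 0.48 on the hypoxia arrays, against -0.74 and -0.22 on the normoxia arrays.

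**Figure D4:**
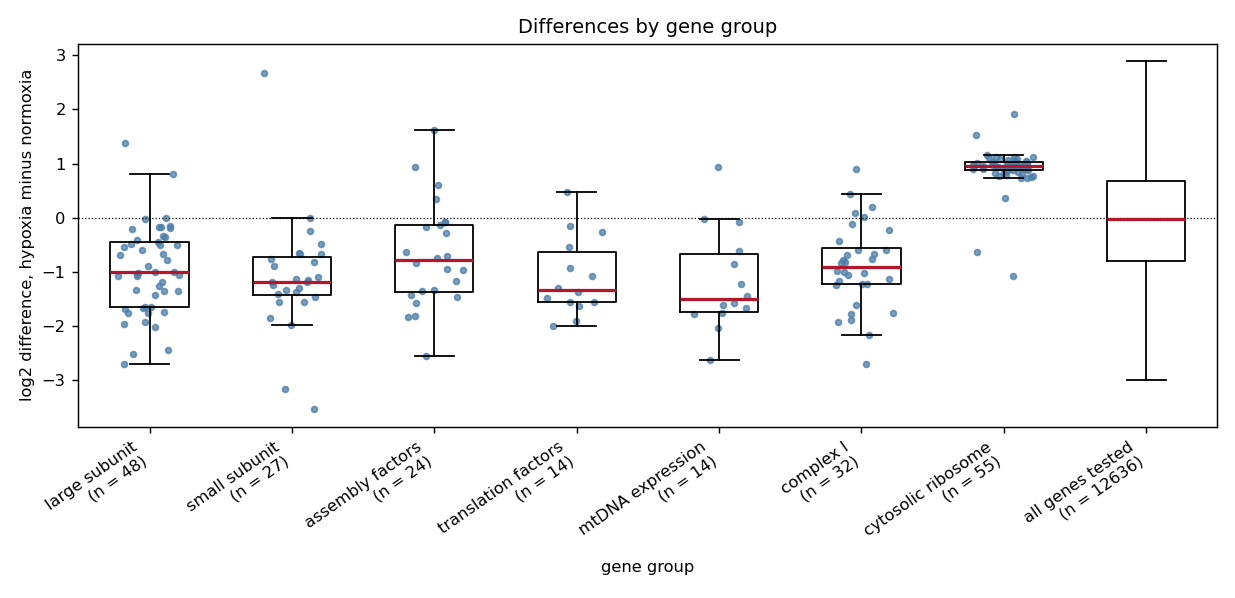
Log2 difference, hypoxia minus normoxia (y axis), by gene group (x axis, n genes tested). Points are genes, boxes show quartiles with the median in red, and whiskers reach the last gene within 1.5 box lengths; all genes are drawn without points. Large and small subunit genes have medians of -1.01 and -1.18, and cytosolic ribosome genes 0.95; scaled to the hybridization controls, the median of all genes moves by -1.47.

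Some subunit genes share a start region with a neighbour on the other strand. A neighbour whose start lay within 1000 bases was found for 18 of 67 genes (26.9%), against 13.4% of 9723 genes tested. Of 16 neighbours tested, 10 fell, 0 rose and 6 did not pass the test, with a median of -1.26. Over all genes tested, 22.8% were lower in hypoxia. MRPS11 and MRPL46 are neighbours of each other and both fell, so the 16 and the 10 include both of these members. MITD1 beside MRPL30 was at -1.66, SARS2 beside MRPS12 at -1.93 and PTCD2 beside MRPS27 at -2.30. EME1 beside MRPL27 was at -0.05, and ZNF189 beside MRPL50 at 0.12. These neighbours were picked with their values in view.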

How the data were processed

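Expression was measured on 4 arrays of HCT116 cells, 2 of hypoxia and 2 of normoxia, grouped by the labels. The deposited values are intensities on a linear scale made by the authors with MAS5, per the submitters' processing notes; which version was used is not given in the sources used. Their mean without the lowest and highest 2% was 500.1 on all 4 arrays. No pair of arrays shared more than 1 identical value.

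Probe sets were named by the platform annotation: of 54675, 41091 listed 1 gene, 1801 several (not used, among them 4 that match the name rule), 11721 none and 62 were controls. For each of 19777 genes the probe set with the highest mean was used, and 12636 with a mean of at least 97.4 were tested on log2(signal + 23.7) with limma 3.58.1 (R 4.3.3), two-sided, with an intensity trend and Benjamini-Hochberg adjustment. The fit was tested on simulated data in which each gene had the same spread in both conditions. That test does not cover the wider spread seen in hypoxia.

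Named with values were, among called subunit genes, the 10 largest decreases and 10 largest increases, the MRPS18 genes, MRPS30, members with a probe set of opposite sign, and up to 4 called genes of each other list; others are named by symbol or were chosen after their values were seen. MRPS36 is not among the members. The members and lists were chosen with earlier results of these data known, and the subunit regions, compared sets and motifs were written after values were seen. The pattern for cytosolic ribosomal protein genes also takes in paralogues such as RPS27L. A narrower pattern without the Y-linked gene and these paralogues was tried after seeing the values and dropped; it gave 50 higher and 0 lower of 51. The labels give the letters as exp A and exp B, each with both oxygen levels. They were not taken as pairs, since the labels do not say whether a letter marks a shared culture or day. The A minus B deviations of both conditions correlated at 0.09 over genes. Alternatives covered the pseudocount, filter, scaling, probe set choice, trend, block and each array left out.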

Additional observations from a re-analysis of the deposited data

How the results depend on the processing

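The direction of the subunit medians held in every setting tried. The cause of each change was not tested. As arrays were left out in turn, the lone array was assumed to vary like the other condition. Calls then ran from 2575 (without normoxia A; 2653 without normoxia B) to 6257 over all genes, against 4803, and from 34 to 60, 21 to 37 and 13 to 24 lower calls for all, large and small subunit genes. Medians ran from -1.05 to -0.75 (large), -1.14 to -1.07 (small) and -1.05 to -0.81 (mitochondria-specific), and the large minus small median from 0.044 to 0.39. With letter A or B as a replicate block, 5487 genes and 59 lower and 3 higher subunit genes were called. Without an intensity trend 3141 genes were called, 33 subunit genes lower (19 large, 14 small) and 1 higher, and at adjusted p under 0.01 (limma) 2994 genes. Scaled to the hybridization controls, 0 subunit genes were higher, and medians for all, large, small, bacterial and mitochondria-specific genes were -2.50, -2.45, -2.62, -2.58 and -2.45. MRPL48 was then at -0.049, MRPL54 at -0.60, MXI1 at -0.0059, NRF1 at -0.56 and YY1 at -0.74. Scaled to the 75th percentile the same medians were -0.93, -0.86, -1.04, -1.01 and -0.86. With the mean of probe sets they were -0.91, -0.73, -1.01 and -0.83 (all, large, bacterial, mitochondria-specific), the large minus small median 0.43 and DAP3 0.037. Quantile normalization gave -0.92 (large), -1.08 (small) and -0.92 (mitochondria-specific). The 50th percentile pseudocount gave -1.11 (small) and -1.08 (bacterial). Without ambiguous probe sets 40 subunit genes were tested: 25 fell (15 large, 10 small), the mitochondria-specific median was -1.11, large minus small 0.082, DAP3 0.55 and SSBP1 1.05. Of the named genes' values under alternatives, 553 kept direction and call, 40 lost the call and 8 turned.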
